A study of Mus musculus with 4 samples.

Results

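Aminoacyl-tRNA synthetases and the scaffold proteins of their complex were followed as a gene family in laser-captured crypts of the mouse intestine. The family was taken by gene symbol, as every gene whose name is a capital letter followed by ars and by nothing, 1 or 2, together with Farsa, Farsb, Eprs, Aimp1, Aimp2 and Eef1e1. It held 38 genes with 76 probe sets, out of 34945 probe sets on the array that carry a single gene symbol. Of the 38 genes, 19 encode cytosolic enzymes, 16 mitochondrial enzymes and 3 scaffold proteins. For each gene the probe set that was brightest on average over all 4 arrays was used. Of these genes, 35 passed the filter on dim probe sets. The other 3 (Aars2, Cars and Sars2) were too dim to be tested, and their control and mutant values overlapped. The 35 genes passed on the mean over all arrays and not on either group.

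Crypts of 2 control samples were compared with crypts of 2 samples from mice that had lost the beta-catenin gene by induced deletion. Tamoxifen was used to induce the deletion, and the mutant label refers to day 2 of deletion. The control label carries the same day, and the labels do not say whether control mice received tamoxifen. The sources used here give no strain, age, driver of the recombination or deleted exons. Nor is it stated whether replicate arrays stem from different mice. Every p-value thus reflects the spread among these samples alone, and that spread may be technical.

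Aminoacyl-tRNA synthetases join each amino acid to its matching tRNA, the step that sets the meaning of the genetic code before the ribosome acts. Separate nuclear genes serve the cytosol and the mitochondrion for most amino acids, although Gars and Kars each supply both compartments. In the cytosol several of the enzymes are held together in the multisynthetase complex by the scaffold proteins Aimp1, Aimp2 and Eef1e1. Many cytosolic synthetase genes are known targets of the transcription factor ATF4, which is translated when amino acids are short. The crypt renews its cells rapidly and therefore has a high demand for charged tRNA.

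The arrays differed in ways that touch all values below. Markers of crypt epithelium were present on every array, with 11 of 11 genes kept and a summed deposited signal between 42671 and 47608 in the controls and between 51334 and 57278 in the mutants. Single markers differed between the groups in both directions. In normalized log2 signal the stem cell genes Olfm4 (12.52 and 12.33 in controls, 10.93 and 11.20 in mutants) and Lgr5 (6.19 and 6.06 against 5.51 and 4.67) and the cycling cell gene Mki67 (11.01 and 11.80 against 10.28 and 10.48) had both mutants below both controls. The goblet cell gene Muc2 stood at 11.22 and 11.59 in controls and 12.21 and 12.68 in mutants, above both controls. By smaller margins Lyz1 was also below (13.43 and 13.53 in controls, 13.27 and 13.42 in mutants). Krt8 was also above (13.14 and 13.07 against 13.19 and 13.20), and the remaining crypt markers overlapped. Among all kept genes 19.2% had both mutants below both controls and 18.9% both above. These markers and the synthetase genes were measured on the same arrays, and the part of cell makeup in the synthetase values was not tested. Mutant replicate 1 also held transcripts of pancreatic acinar cells. Over 10 measured acinar genes its summed signal was 83434, against 1332 and 1532 on the control arrays and 1001 on that of mutant replicate 2. The acinar enzyme gene Cpa1 was near 0 on those other arrays, with signals of 1.18, 3.33 and 1.88. Islet genes summed to 2676 on that array and to between 207 and 349 on the others, and lymphocyte genes to 4231, against 670 and 1970 for the controls and 655 for mutant replicate 2. The sums over macrophage genes were between 688 and 807 in controls and 1069 and 1171 in mutants, those over fibroblast and smooth muscle genes were between 2826 and 4981 on all arrays, and those over endothelial genes were between 127 and 169. For beta-actin, the control probe sets near the 5' end gave 0.149 and 0.0567 of the signal of those near the 3' end in controls, and 0.0945 and 0.0448 in mutants, a measure of how far transcripts were shortened. Ctnnb1, the targeted gene, had a mean log2 signal of 12.50 in controls and 11.94 in mutants, a difference of -0.56 (SE 0.22) that did not pass (limma, adjusted p = 0.785).

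Differences of the synthetase genes between mutant and control crypts were small for most members. No member passed the test over all probe sets, and the lowest adjusted p among them was 0.768 (limma, Benjamini-Hochberg over 22519 probe sets). Over all probe sets 0 of 22519 passed (0%), while 1415 (6.28%) had an unadjusted p under 0.05. Of the 35 kept members, 22 were lower in the mutants and 13 higher, and among all 11395 kept genes 49.3% were lower and 50.7% higher. The median log2 difference, mutant minus control, was -0.10 for the members and 0.01 for all kept genes. In bulk captures of this kind, fewer cells of a type and less RNA per cell cannot be told apart.

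After quantile normalization the members whose groups did not overlap were on the low side, but this depended on the scaling. In the values as deposited 9 of the 35 were below and 6 above, against 14.9% and 14.8% of all kept genes. With median centring 3 were below and 3 above, against 10.1% and 18.7%. On the quantile-normalized scale both mutant arrays lay below both control arrays in 9 of the 35 genes, against 19.2% of all kept genes. In 0 of the 35 both mutant arrays lay above both controls, against 18.9% of kept genes. An unadjusted limma p under 0.05 was reached by 4 members that were lower (Yars2, Lars2, Iars2 and Farsb), with a background of 3.62%, and by 0 that were higher, with a background of 3.32%. The intervals were wide. The 95% half-width of a member's difference had a median of 0.83 on the log2 scale, or 1.78-fold, and ranged from 0.63 to 2.01. A difference smaller than its own half-width could not be told from 0 gene by gene, even before adjustment.

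**Figure D1:**
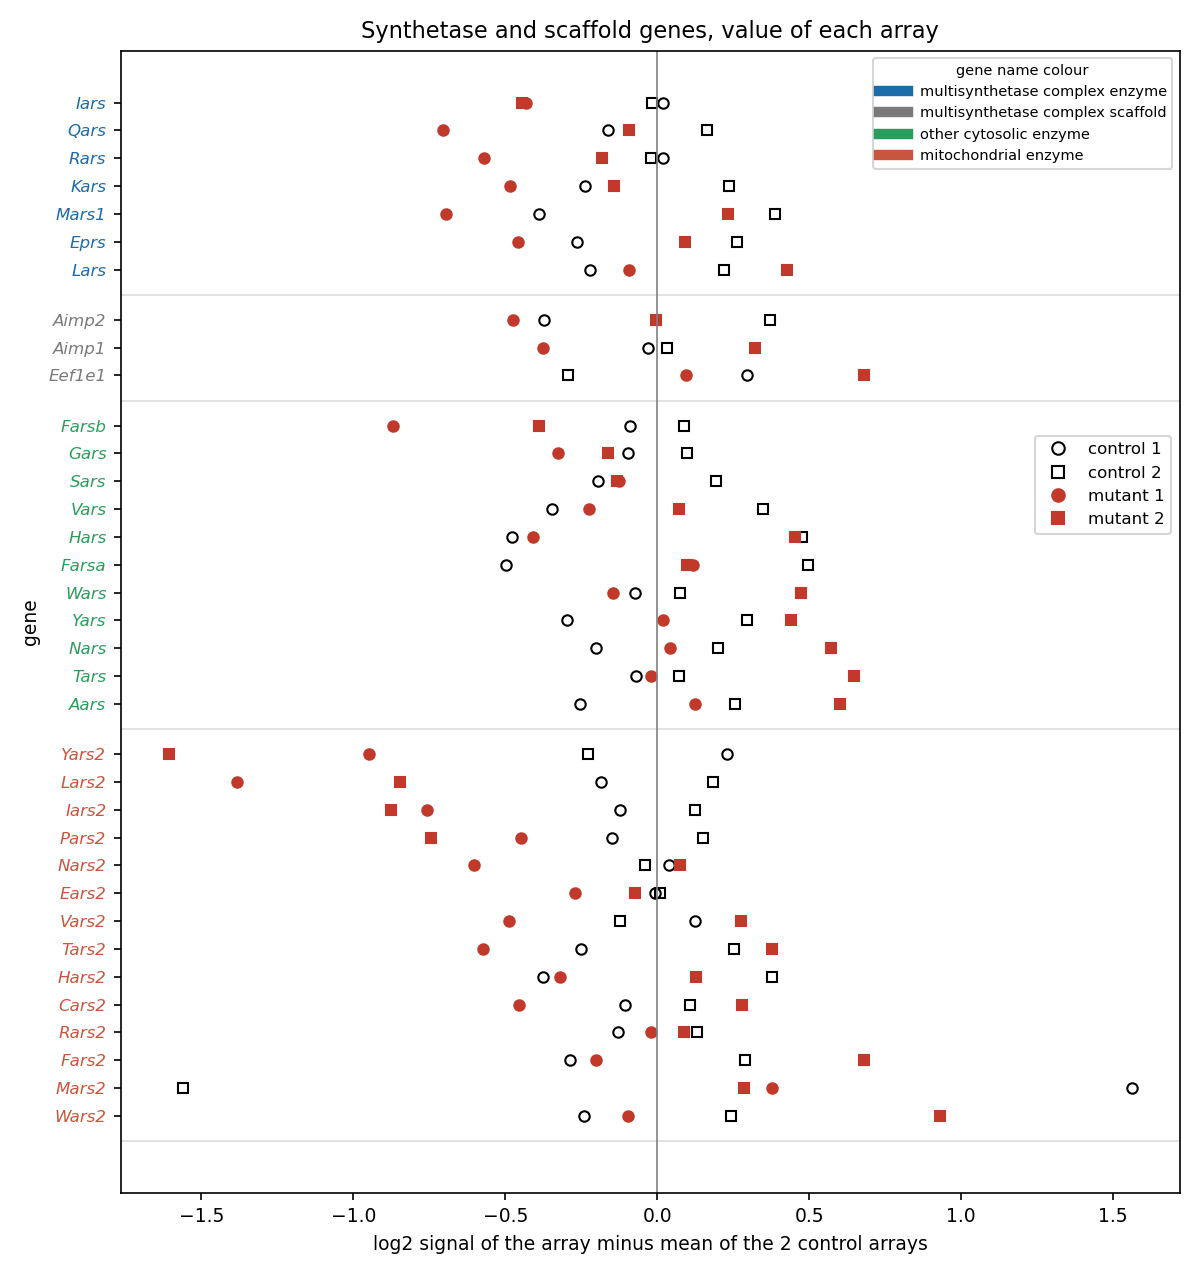
Log2 signal of each array minus the mean of the 2 control arrays (horizontal axis) for the 35 kept genes (vertical axis), with open symbols for controls, filled red symbols for mutants, circles for replicate 1 and squares for replicate 2. In 9 genes both red symbols lie left of both open ones, with Yars2, Lars2 and Iars2 farthest to the left.

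Among the 14 kept genes of mitochondrial enzymes, 10 were lower in the mutants and 4 higher, with a median difference of -0.10 on the log2 scale, where 49.3% of all kept genes were lower. In 5 of the 14 both mutant arrays lay below both controls, against 19.2% of all kept genes. Yars2 charges mitochondrial tRNA with tyrosine. The controls had deposited signals of 437 and 338, the mutants of 251 and 98.7. Both mutant values lay below both control values, with mutant replicate 2 lowest. The normalized log2 signal was 8.64 ± 0.32 (SD, n = 2) for controls against 7.36 ± 0.47 (SD, n = 2) for mutants, and the difference was -1.28 (SE 0.39, limma adjusted p = 0.768), or 2.42-fold lower. Its dimmer probe set gave -0.90 (SE 0.37). The brighter probe set carries the suffix x, which marks probe sets whose probes can also match other transcripts.

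Lars2 encodes the mitochondrial leucine enzyme. Control signals as deposited were 350 and 467 and mutant signals 193 and 180, with no overlap. The difference in log2 signal was -1.11 (SE 0.37, limma adjusted p = 0.768), from 8.71 ± 0.26 (SD, n = 2) to 7.60 ± 0.38 (SD, n = 2). A much dimmer probe set of Lars2 pointed the other way. Its log2 signals were 4.98 and 4.73 in controls and 5.19 and 6.27 in mutants, a difference of 0.88 (SE 0.49), so the direction for this gene rests on the bright probe set.

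Iars2, for mitochondrial isoleucine charging, had deposited signals of 195 and 232 in controls and 150 and 88.4 in mutants. The groups did not overlap, and the difference in log2 signal was -0.82 (SE 0.35, limma adjusted p = 0.785). Pars2, for proline, had signals of 118 and 138 in controls and 107 and 57.2 in mutants, a difference of -0.60 (SE 0.36). The glutamate enzyme gene Ears2 was the fifth, at -0.17 (SE 0.35), with signals of 98.2 and 90.6 against 88.5 and 68.8. For Yars2, Lars2 and Iars2 the groups stayed apart also in the values as deposited and after median centring. With the mean of all kept probe sets the groups stayed apart for Yars2 and Iars2 but not for Lars2. With 1 array left out in turn, the difference lay between -1.61 and -0.95 for Yars2, between -1.38 and -0.85 for Lars2, between -0.94 and -0.69 for Iars2 and between -0.75 and -0.45 for Pars2. These ranges include the fit that leaves out mutant replicate 1, which carried the pancreatic transcripts.

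The remaining 9 mitochondrial genes overlapped between the groups. Differences in log2 signal were -0.27 (SE 0.38) for Nars2, -0.11 (SE 0.40) for Vars2, -0.10 (SE 0.42) for Tars2, -0.10 (SE 0.42) for Hars2 and -0.09 (SE 0.39) for Cars2. On the higher side, they were 0.03 (SE 0.32) for Rars2, 0.24 (SE 0.40) for Fars2, 0.33 (SE 0.88) for Mars2 and 0.42 (SE 0.45) for Wars2. Mars2, the methionine enzyme, was the least certain value of the family. Deposited signals were 83.7 and 3.26 for the controls, which lay on either side of both mutants at 32.8 and 23.9. The median of the mitochondrial genes depended on single arrays, since it was 0.11 without mutant replicate 1, with 5 of 14 genes lower, and -0.45 without mutant replicate 2, with 13 of 14 lower. Of all kept genes, 50% and 49% were lower in these fits.

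**Figure D2:**
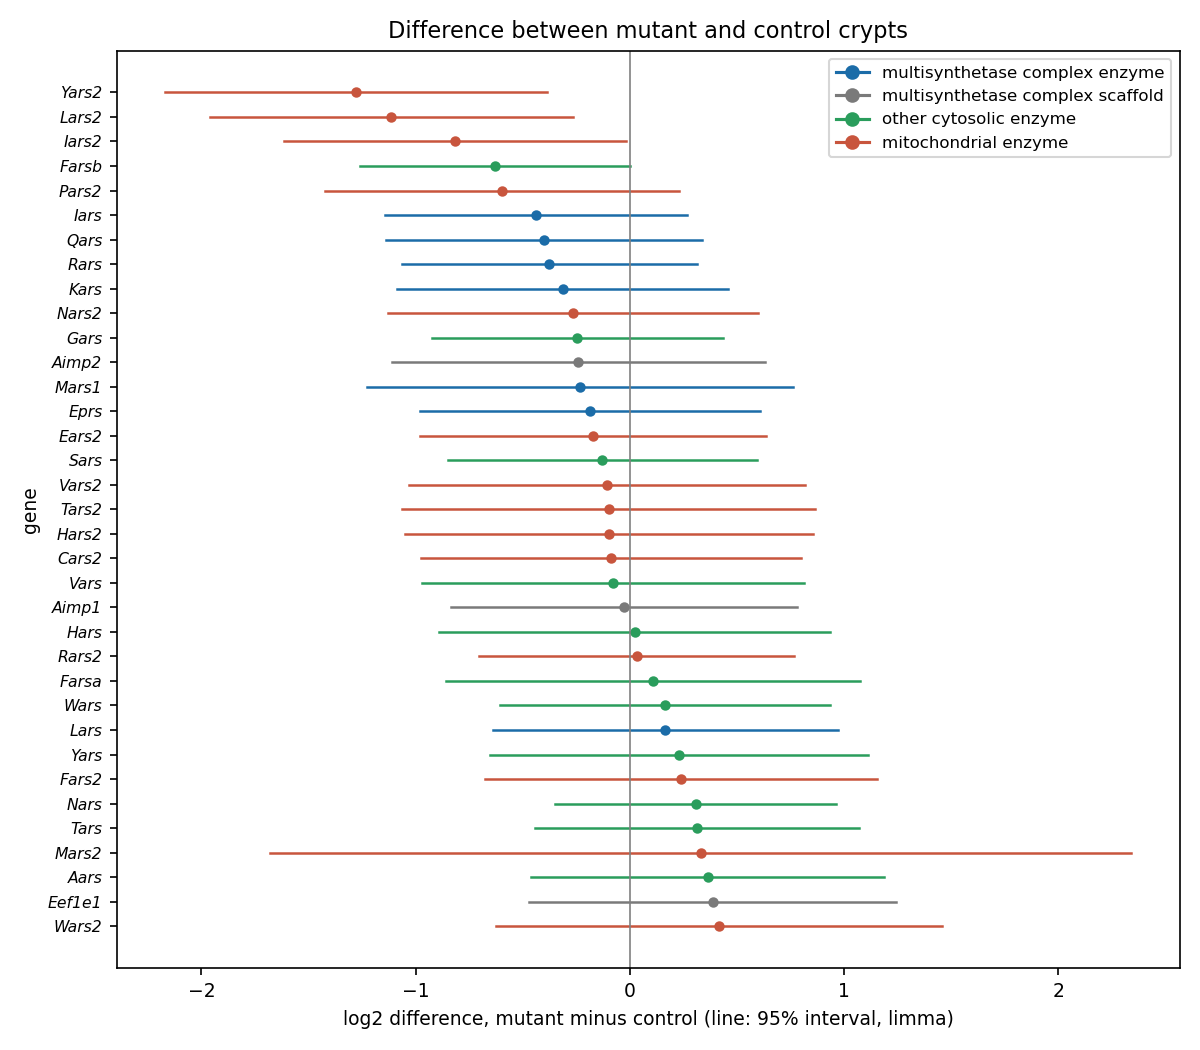
Log2 difference, mutant minus control (horizontal axis), with its 95% interval from limma for the 35 kept genes, ordered by difference and coloured by the place of the enzyme. The intervals of Yars2, Lars2, Iars2 and, narrowly, Farsb stay below 0, before any adjustment for the number of probe sets.

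No enzyme gene of the multisynthetase complex passed the test (limma, lowest adjusted p = 0.853). Of 7 kept genes 6 were lower and 1 higher, with a median difference of -0.31 on the log2 scale, where 49.3% of all kept genes were lower. In 2 of the 7, Iars and Rars, both mutant arrays lay below both controls, against 19.2% of all kept genes. Iars, the cytosolic isoleucine enzyme, had normalized log2 signals of 9.63 and 9.60 in controls and 9.18 and 9.17 in mutants. The replicates lay close together and the groups apart, with a difference of -0.44 (SE 0.31, limma adjusted p = 0.853). The deposited signals of Iars before normalization were 728 and 752 in controls and 759 and 467 in mutants, and on that scale mutant replicate 1 was not below the controls. Rars, the arginine enzyme, had deposited signals of 1149 and 1213 in controls and 1091 and 930.0 in mutants, and differed by -0.38 (SE 0.30) in log2 signal.

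The other 5 complex enzymes overlapped between the groups. Qars (glutamine) differed by -0.40 (SE 0.32), Kars (lysine) by -0.31 (SE 0.34), Mars1 (methionine) by -0.23 (SE 0.43) and Eprs, which charges both glutamate and proline, by -0.18 (SE 0.35). Lars, the cytosolic leucine enzyme that also senses leucine for the growth kinase mTORC1, was the one on the higher side at 0.17 (SE 0.35). On all 3 kept probe sets Qars and Eprs were lower. The median of these 7 genes was -0.48 without mutant replicate 2 and -0.45 without control replicate 1, but -0.09 without mutant replicate 1 and -0.08 without control replicate 2, each with 4 lower and 3 higher. Of all kept genes, 50% were lower without mutant replicate 1 and 47.2% without control replicate 2. With median centring the median of the 7 was -0.07, and 0 of the 7 had both mutants below both controls, against 10.1% of all kept genes.

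The 3 scaffold genes overlapped between the groups. Aimp1, whose product is also processed to a secreted cytokine, had deposited signals of 595 and 660 in controls and 660 and 697 in mutants, a log2 difference of -0.03 (SE 0.35) after normalization. Aimp2, which holds the complex together, had signals of 440 and 770 in controls and 566 and 496 in mutants, a difference of -0.24 (SE 0.38). Eef1e1, the smallest scaffold protein, had signals of 547 and 390 in controls and 673 and 648 in mutants, a difference of 0.39 (SE 0.37). Both mutant signals of Eef1e1 were above the controls as deposited, and the groups overlapped after quantile normalization.

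Of the 11 kept genes of cytosolic enzymes outside the complex 4 were lower and 7 higher, with a median difference of 0.11 on the log2 scale. In 2 of them (Farsb and Gars, 18.2%) both mutants lay below both controls, near the 19.2% of all kept genes. The balance rested on single arrays, since 7 were lower and 4 higher without control replicate 1 (median -0.32) and without mutant replicate 2 (median -0.13). Of all kept genes, 53.3% and 49% were lower in these fits. The median of the 11 was 0.39 without control replicate 2 and 0.44 without mutant replicate 1. Farsb encodes the beta subunit of the phenylalanine enzyme. Deposited signals of 2590 and 3260 in controls stood against 2254 and 2161 in mutants. The groups did not overlap, and the log2 signal differed by -0.63 (SE 0.28, limma adjusted p = 0.789), from 11.63 ± 0.13 (SD, n = 2) to 11.00 ± 0.34 (SD, n = 2). The probe set used for Farsb carries the suffix x, as those of Yars2, Qars and Wars do.

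Farsa encodes the alpha subunit that pairs with Farsb in the same enzyme. Its deposited signals were 84.8 and 159 in controls and 147 and 92.6 in mutants, with full overlap and a log2 difference of 0.11 (SE 0.42). Gars, the glycine enzyme, had signals of 934 and 1144 in controls and 1130 and 815 in mutants, and a difference of -0.24 (SE 0.30) in which the groups separated only after normalization. Sars (serine) differed by -0.13 (SE 0.32), Vars (valine) by -0.08 (SE 0.39) and Hars (histidine) by 0.02 (SE 0.40).

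Among the cytosolic enzymes outside the complex, Aars, the alanine enzyme, had the highest difference. It had signals of 359 and 526 in controls and 640 and 562 in mutants as deposited, a log2 difference of 0.36 (SE 0.36, limma adjusted p = 0.888). Tars, the threonine enzyme, had signals of 894 and 1044 in controls and 1314 and 1369 in mutants, a difference of 0.31 (SE 0.33). Nars, the asparagine enzyme, had signals of 2118 and 3034 in controls and 3627 and 3766 in mutants, a difference of 0.31 (SE 0.29). In all 3 genes both mutants lay above both controls as deposited, whereas after quantile normalization mutant replicate 1 lay between the controls. Yars, for tyrosine, differed by 0.23 (SE 0.39).

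Wars encodes the tryptophan enzyme and is known to be induced by interferon gamma. Its deposited signals were 678 and 795 in controls and 925 and 916 in mutants. After normalization the log2 signals were 9.53 and 9.68 in controls and 9.46 and 10.08 in mutants, so the groups overlapped, with a difference of 0.16 (SE 0.34, limma adjusted p = 0.956). The sign of Wars turned to -0.15 without mutant replicate 2.

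How many members were lower depended on the scaling and on single arrays. In the values as deposited 20 of 35 were lower, against 48.9% of all kept genes. At that setting 9 had both mutants below both controls and 6 had both above (Aars, Aimp1, Eef1e1, Nars, Tars and Wars), against 14.9% and 14.8%. Of the 9 genes below, 7 were the same as after quantile normalization. With median centring 16 of 35 (45.7%) were lower, against 39.4% of all kept genes, whose median then stood at 0.13. At that setting 3 members were below both controls (Yars2, Lars2 and Iars2) and 3 above (Aars, Eef1e1 and Tars). The shares of all kept genes were 10.1% below and 18.7% above. With 1 array left out, the number lower was 27 without control replicate 1, 14 without control replicate 2, 13 without mutant replicate 1 and 29 without mutant replicate 2. In the same order, 53.3%, 47.2%, 50% and 49% of all kept genes were lower. Mutants below controls were counted in 20 members without control replicate 1, against 37.2% of kept genes, and in 20 without mutant replicate 2, against 33.4%. Mutants above controls were counted in 14 members without mutant replicate 1, against 33.8% of kept genes, and in 13 without control replicate 2, against 38.6%. The median difference of the family was 0.10 without mutant replicate 1 and 0.08 without control replicate 2, the reverse of its sign with all arrays.

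After quantile normalization the family shared a pattern across arrays that was larger than its difference between groups. In 28 of the 35 genes (80%) control replicate 2 lay above control replicate 1, against 56.8% of all kept genes, and in 28 of 35 mutant replicate 2 lay above mutant replicate 1, against 50.1%. The median gap was 0.33 between the controls and 0.48 between the mutants, on the log2 scale, and 0.10 and 0.00 over all kept genes. The order of the mutant arrays depended on the scaling. In deposited signals mutant replicate 1 was the higher for Lars (727 and 673), Eprs (965 and 915) and Farsb (2254 and 2161), among others. Mutant replicate 2 stayed higher for other genes, such as Hars (2318 and 3009) and Nars (3627 and 3766). On the normalized scale the difference between groups exceeded the gaps within both groups in 7 of the 35 genes, against 25.3% of all kept genes. The arrays on which the family stood higher after normalization were also those with the lower 5' to 3' ratio of beta-actin, and mutant replicate 1 held the pancreatic transcripts. Their part in the pattern was not tested.

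More than 1 probe set was kept for 19 of the 35 genes, and in 9 of these the probe sets disagreed in sign. Farsb had 3 probe sets that were lower, at -0.63, -0.90 (SE 0.31) and -0.40 (SE 0.48), and a dimmer probe set at 0.09 (SE 0.47). Fars2, the mitochondrial phenylalanine enzyme, had deposited signals of 482 and 755 in controls and 721 and 858 in mutants with its brighter probe set. It stood at 0.24 with that probe set and at -0.75 (SE 0.44) with the other. Vars2, for mitochondrial valine charging, had signals of 94.8 and 70.0 in controls and 63.8 and 77.1 in mutants with its brighter probe set, which overlapped. It differed by -0.11 with that probe set, whereas its dimmer probe set had log2 signals of 4.88 and 4.99 in controls and 5.99 and 6.03 in mutants, a difference of 1.07 (SE 0.40, limma adjusted p = 0.772). That was the largest positive difference among the kept probe sets of the family. Hars had deposited signals of 1537 and 3183 in controls and 2318 and 3009 in mutants, and those of Wars2, the mitochondrial tryptophan enzyme, were 54.5 and 62.4 against 57.7 and 85.6. In both genes the groups overlapped after normalization. Hars (0.02 and -0.34), Nars (0.31 and -0.01), Wars2 (0.42 and -0.04), Farsa (0.11, 0.39 and -0.10), Ears2 (-0.17, 0.20 and -0.37) and Lars2 made up the rest. Yars2, Qars, Eprs, Aimp2, Iars, Sars, Hars2 and Tars2 were lower on all kept probe sets, and Aars and Wars higher on all.

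**Figure D3:**
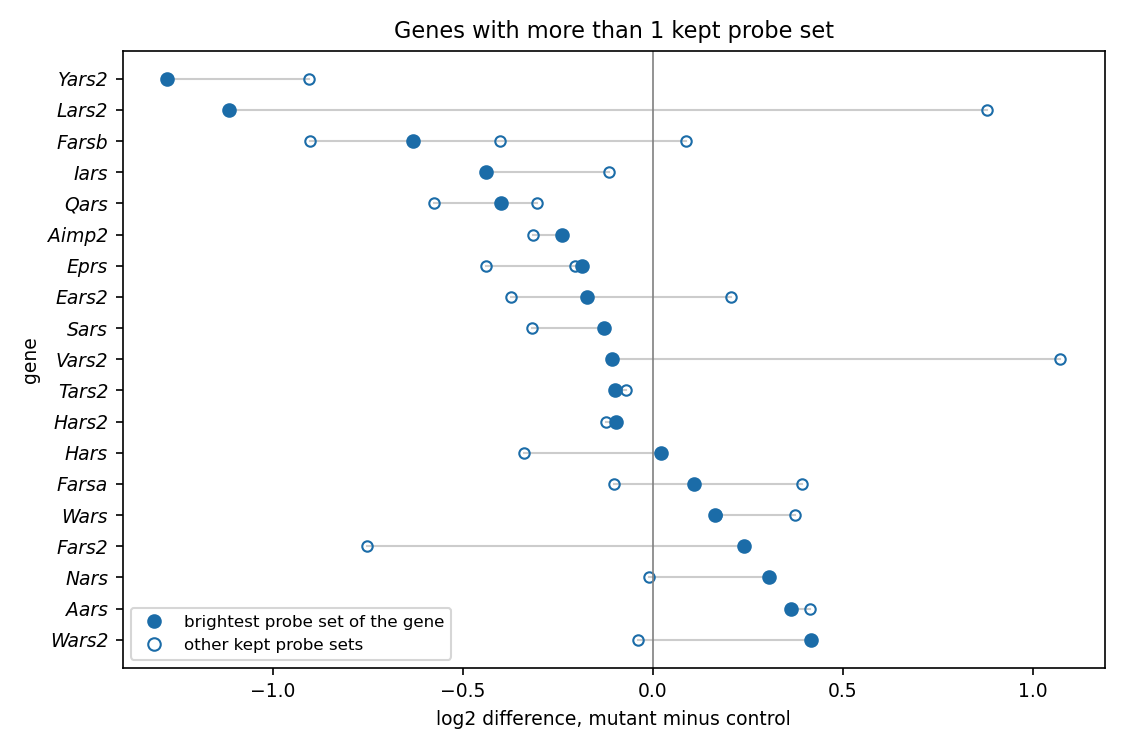
Log2 difference, mutant minus control (horizontal axis), of each kept probe set for the 19 genes with more than 1, with filled points for the brightest probe set and open points for the others. Lars2, Fars2 and Vars2 have probe sets far apart on opposite sides of 0, and Yars2 has both on the left.

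The start sites of the family were examined for a DNA element, because ATF4 acts on many cytosolic synthetase genes through a composite element whose core can be written TTNCATCA. RefSeq windows (GRCm38.p6) from 250 bases before to 50 bases after the start were given for 29 of the 38 genes, 31 windows in all. On either strand the core was present in 5 of the 31 windows (16.1%), against 3.97% of all 32851 windows. All 5 belonged to cytosolic enzymes (Aars, Gars, Iars, Tars and Yars), out of 16 windows of cytosolic enzymes and scaffold genes, and 0 of 15 mitochondrial windows held it. The stretches that hold these matches are printed 5′ to 3′ on the strand of the gene, with the core in capitals.
Aars, chr8:111033704-111033763, strand +: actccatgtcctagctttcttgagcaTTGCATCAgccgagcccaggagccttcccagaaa
Aars, chr8:111033825-111033884, strand +: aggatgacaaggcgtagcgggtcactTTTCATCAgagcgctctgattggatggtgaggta
Gars, chr6:55037945-55038004, strand +: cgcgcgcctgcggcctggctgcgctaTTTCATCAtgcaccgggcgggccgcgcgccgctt
Iars, chr13:49682111-49682170, strand +: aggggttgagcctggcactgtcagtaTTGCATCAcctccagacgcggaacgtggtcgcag
Tars, chr15:11399640-11399699, strand -: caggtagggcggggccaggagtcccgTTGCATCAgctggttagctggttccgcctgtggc
Yars, chr4:129189880-129189939, strand +: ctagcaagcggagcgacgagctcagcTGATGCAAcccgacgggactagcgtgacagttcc
The 2 matches of Aars begin 112 bases upstream and 9 bases downstream of the start, that of Gars 30 bases and that of Tars 15 bases upstream, and those of Iars and Yars 7 and 3 bases downstream. In Yars the core lies on the opposite strand and is read as its reverse complement. These 5 genes stood on both sides of 0 in the mutants. After quantile normalization Aars, Tars and Yars stood at 0.36, 0.31 and 0.23 on the log2 scale, with overlapping groups. Gars and Iars stood at -0.24 and -0.44 with both mutants below both controls, against 19.2% of all kept genes. As deposited and with median centring, Aars and Tars instead had both mutants above both controls, against 14.8% and 18.7% of all kept genes. Neither Gars nor Iars had both mutants below both controls at these settings. A match of letters is a description of the window and does not show that a factor binds there.

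For comparison, the windows of the mitochondrial genes with the lowest differences, Yars2 and Lars2, are shown whole. They hold neither the ATF core nor the E-box CACGTG nor the CCAAT box. Of the 15 mitochondrial windows 0 held the ATF core, 1 (6.67%) the E-box and 6 (40.0%) the CCAAT box, that of Iars2 among them.
Yars2, chr16:16302715-16303014, strand +: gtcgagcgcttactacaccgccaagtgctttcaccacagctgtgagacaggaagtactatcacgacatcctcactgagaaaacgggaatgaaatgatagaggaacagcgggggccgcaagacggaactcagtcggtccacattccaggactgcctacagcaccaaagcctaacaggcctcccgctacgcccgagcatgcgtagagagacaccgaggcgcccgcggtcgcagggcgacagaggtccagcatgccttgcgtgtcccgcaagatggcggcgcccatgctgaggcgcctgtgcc
Lars2, chr9:123366677-123366976, strand +: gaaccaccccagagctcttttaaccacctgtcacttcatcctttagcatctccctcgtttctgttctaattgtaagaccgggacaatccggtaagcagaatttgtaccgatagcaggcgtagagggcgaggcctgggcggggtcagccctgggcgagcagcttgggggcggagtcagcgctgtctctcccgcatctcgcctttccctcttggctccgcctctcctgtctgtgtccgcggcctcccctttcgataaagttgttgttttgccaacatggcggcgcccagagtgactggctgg
The E-box CACGTG, a site that Myc can bind, was found in 5 of 31 windows of the family (16.1%), those of Aars, Ears2, Farsb, Iars and Tars, against 7.15% of all windows. The CCAAT box was found in 16 of 31 (51.6%), against 37.4%. In Aars, Iars and Tars all 3 motifs were present.

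A list of other tRNA genes, most of which mature or modify tRNA, had more genes lower than higher in the mutants. Of 78 kept genes 64 (82.1%) were lower and 14 higher, against 49.3% lower among all kept genes, with a median log2 difference of -0.35, and in 35 of them both mutants lay below both controls, against 19.2% of all kept genes. None passed over all probe sets (limma, lowest adjusted p = 0.768), and 4 lower genes of the 78 had an unadjusted p under 0.05, with a background of 3.62%. The pseudouridine synthase gene Trub1 had log2 signals of 6.89 and 6.80 in controls and 5.73 and 5.49 in mutants, a difference of -1.23 (SE 0.36). Rpp40, a subunit of ribonuclease P, which trims the 5′ end of tRNA, stood at 7.01 and 6.92 against 5.63 and 6.03, a difference of -1.13 (SE 0.37). Qtrt2, a subunit of the enzyme that inserts queuine into the anticodon, differed by -1.02 (SE 0.35), and the tRNA methyltransferase gene Trmt11 by -0.92 (SE 0.36). In all 4 genes the groups were apart. The list also held Tarsl2, itself a threonyl-tRNA synthetase gene outside the naming rule of the family, at -0.75 (SE 0.40). It held genes whose products act on charged tRNA as well, Aarsd1 at -0.47 (SE 0.38), Dtd1 at -0.14 (SE 0.36) and Mtfmt at 0.17 (SE 0.42). These 4 genes were named after their values were seen. The median of the list was -0.22 without control replicate 2 and -0.30 without mutant replicate 1. In these fits 56 and 53 of 78 genes were lower, against 47.2% and 50% of all kept genes. With median centring the genes with both mutants below both controls numbered 17 (21.8%), against 10.1% of all kept genes.

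A list of ATF4 and of amino acid and stress genes linked to it, without the synthetases, had more genes higher than lower, although Atf4 itself was not among the higher ones. Of 32 kept genes 21 were higher and 11 lower, against 50.7% higher among all kept genes, with a median log2 difference of 0.38, and in 14 both mutants lay above both controls, against 18.9% of all kept genes. Again 0 passed over all probe sets (limma, lowest adjusted p = 0.732), and 3 higher genes of the 32 had an unadjusted p under 0.05, with a background of 3.32%. Atf4 had deposited signals of 1598 and 570.1 in controls and 645 and 752 in mutants, which overlapped, and differed by -0.60 (SE 0.53) in log2 signal. Nupr1, a stress-induced chromatin protein gene, stood at 6.73 and 7.33 in controls and 9.52 and 9.10 in mutants in log2 signal, a difference of 2.28 (SE 0.38). Trib3, a pseudokinase gene induced by ATF4, stood at 5.34 and 5.30 against 7.01 and 6.62, a difference of 1.49 (SE 0.37). Slc3a2, the heavy chain of amino acid transporters, differed by 0.78 (SE 0.30) and Ddit3, which encodes CHOP, by 0.84 (SE 0.37). In 2 genes of the list (6.25%) both mutants lay below both controls, against 19.2% of all kept genes. They were Phgdh, the first enzyme of serine synthesis, at -0.61 (SE 0.33), and Asns at -0.32 (SE 0.32). Asns is the asparagine synthetase gene and a well-known target of ATF4. Its deposited signals were 457 and 467 in controls and 502 and 305 in mutants, so on that scale mutant replicate 1 was not below the controls. With median centring 0 genes of the list were below, against 10.1% of all kept genes. The probe sets used for Atf4, Phgdh, Asns and Trib3 carry the suffix x, so their probes can also match other transcripts. The median of the list was 0.19 without control replicate 1, 0.22 without mutant replicate 2, 0.39 without mutant replicate 1 and 0.50 without control replicate 2. In the values as deposited 9 genes rather than 14 had both mutants above both controls, against 14.8% of all kept genes. The differences between these lists and the synthetase family were not tested.

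**Figure D4:**
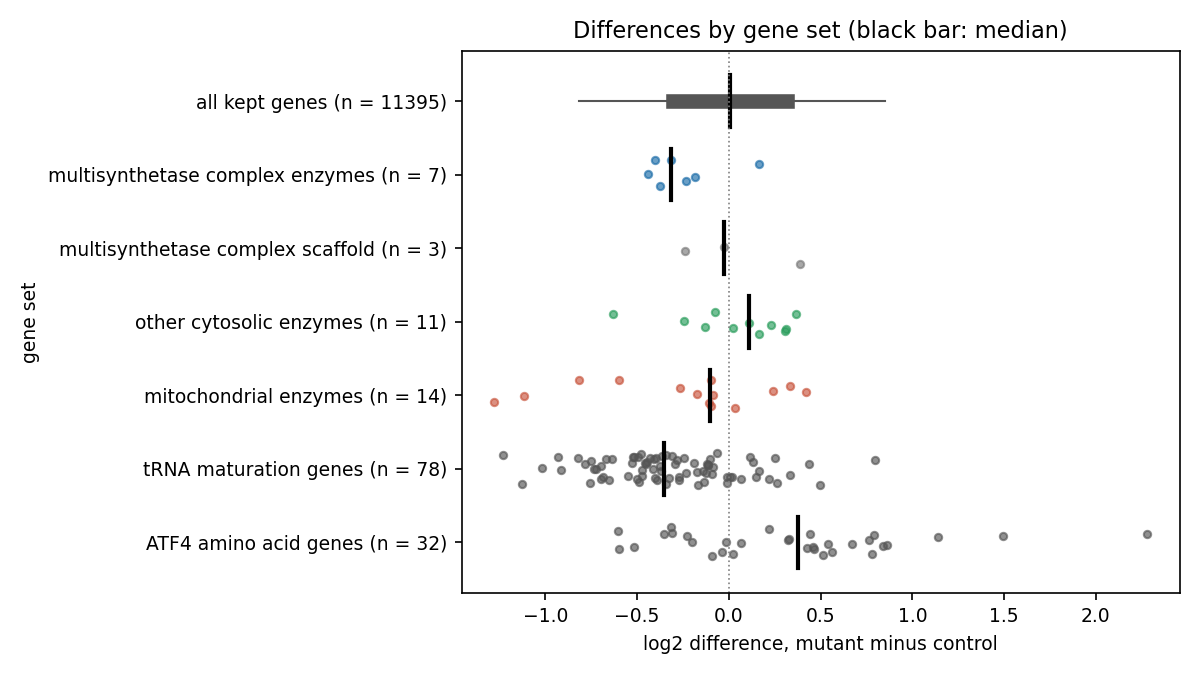
Log2 difference, mutant minus control (horizontal axis), by gene set (vertical axis), with a point for each gene and a black bar for the median. For all 11395 kept genes the thick line spans the 25th to 75th and the thin line the 5th to 95th percentile. The list of other tRNA genes (tRNA maturation) has its median at -0.35, the ATF4 genes at 0.38, and the synthetase sets lie between -0.31 and 0.11.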

How the data were processed

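Probe set intensities of 4 single-colour arrays (2 control, 2 mutant) were deposited by the authors on a linear scale and came from MAS5, per the submitters' processing notes. Neither its version nor its scaling target is given in the sources used here. Per the labels, RNA went through 2 rounds of amplification. Of 45101 probe sets, 64 controls were left out. In the platform annotation 34945 had 1 gene symbol, 932 several (not used to name a gene) and 9160 none.

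The log2 of intensity + 5 was taken, 5 being the rounded 20th percentile of all values, and quantile-normalized. Fold changes refer to this scale and are too small for dim probe sets. Probe sets at or above the median (50th percentile) of mean log2 signal, 4.79, were kept (22519). Groups were compared with limma 3.58.1 (R 4.3.3; lmFit, eBayes with intensity trend; 2 residual and 6.4 prior degrees of freedom), two-sided, and p-values were adjusted over all kept probe sets by Benjamini-Hochberg. SE is that of the fit. The number of arrays limits the precision. The procedure was tested on simulated data.

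All members were named. Arrays are given in full for members with non-overlapping groups, scaffold genes, Wars and members with disagreeing probe sets, and up to 4 genes with the smallest p for each of the other lists. Some further members, Atf4, Phgdh, Asns and single markers were given after their values were seen. For 1 of the 38 genes another probe set would be taken by the mean of linear values. Members and lists were chosen with earlier results of these data known. Promoter windows are from RefSeq. Alternatives covered scaling, pseudocount, filter, variance model, probe set choice, the replicate number as a block and leaving out each array. The same-numbered arrays had a correlation of deviations of 0.03, so the numbers were not taken to pair samples.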

Additional observations from a re-analysis of the deposited data

How the results depend on the processing

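No member passed adjusted p 0.05 in limma under any of the 15 settings, in 519 values. The number of probe sets past that threshold was 0 in the main analysis, 2 with the values as deposited, 102 with median centring and 1 with the replicate block, and between 0 and 85 with 1 array left out (19 without mutant replicate 1 and 85 without mutant replicate 2). The replicate block left the members' differences as they were, with 9 genes below both controls and 22 lower, and changed no member's call. Median centring left 3 members with both mutants below both controls, against 10.1% of all kept genes. With 1 array left out that number was between 9 and 20, the number of members lower between 13 and 29, and their median between -0.38 and 0.10 on the log2 scale. The sign of single members turned to 0.11 (Aimp1) and 0.018 (Sars) with the values as deposited, to 0.23 (Aimp1), 0.0048 (Cars2), 0.078 (Eprs), 0.013 (Gars), 0.14 (Sars) and 0.056 (Tars2) with median centring, to -0.023 (Mars2) with a pseudocount of 32, and to -0.26 (Fars2), -0.16 (Hars) and 0.48 (Vars2) with the mean of all kept probe sets. With 1 array left out in turn, 14 of 35 members kept their sign, Yars2, Lars2, Iars2, Farsb and Pars2 among them, and 21 did not. Their ranges were -0.38 to 0.32 for Aimp1, -0.61 to 0.13 for Aimp2, -0.46 to 0.28 for Cars2, -0.46 to 0.090 for Eprs, -0.20 to 0.68 for Fars2, -0.39 to 0.60 for Farsa, -0.45 to 0.50 for Hars, -0.47 to 0.28 for Hars2, -0.094 to 0.43 for Lars, -0.70 to 0.23 for Mars1, -1.23 to 1.89 for Mars2, -0.60 to 0.074 for Nars2, -0.098 to 0.16 for Rars2, -0.32 to 0.065 for Sars, -0.022 to 0.65 for Tars, -0.57 to 0.38 for Tars2, -0.42 to 0.27 for Vars, -0.49 to 0.27 for Vars2, -0.15 to 0.47 for Wars, -0.096 to 0.93 for Wars2 and -0.066 to 0.53 for Yars. The other lists and subsets were run under alternatives chosen after seeing the data (scaling, the block and each array left out), and Trub1, Rpp40, Qtrt2, Trmt11, Nupr1, Trib3, Slc3a2 and Ddit3 kept their sign in all of them, with Nupr1 past the threshold under median centring (limma adjusted p = 0.0123). With 2 arrays a group the cause of these shifts was not tested.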
